A study of Mus musculus with 2 samples.

Results

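The 10 Leydig genes described here were followed through the single-cell libraries of the mouse testis, out of 36547 genes in the tables. They are Star, Cyp11a1, Cyp17a1, Hsd3b1, Hsd3b6, Hsd17b3, Lhcgr, Insl3, Nr5a1 and Srd5a1, taken by name as genes of testosterone synthesis, its control and Leydig cell identity. The rule uses no measured value, but the list was drawn up with earlier results of these data known. One library came from wild-type (WT) and one from Alkbh5-/- (KO) C57BL/6 mice, both 12 weeks old. The KO is a global knockout bred from heterozygous parents, so the gene is missing in Leydig cells, Sertoli cells and germ cells alike. The study describes 1 mouse per genotype in one place and 3 in another, so a library may pool animals, and with 1 library per genotype no difference between WT and KO has a replicate check, none was tested, and genotype and library cannot be told apart. Intervals below are 95% intervals that cover counting error only.

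Leydig cells lie between the seminiferous tubules and make testosterone from cholesterol under the pulse of luteinizing hormone (LH). LH binds its receptor Lhcgr and raises cAMP, Star moves cholesterol to the inner mitochondrial membrane, Cyp11a1 cuts its side chain to give pregnenolone, and Cyp17a1, the 3-beta-hydroxysteroid dehydrogenases (Hsd3b1 and Hsd3b6) and Hsd17b3 carry the product on to testosterone. Srd5a1 reduces testosterone to the stronger androgen dihydrotestosterone. Nr5a1, also called SF-1, is the nuclear receptor that switches on many of these genes, and Insl3 is a peptide hormone of the same cells that acts in testis descent.

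Each deposited count is a number of unique molecular identifiers (UMIs), that is of captured RNA molecules, for a gene in a cell barcode. There were 80283221 UMIs in 5756 barcodes for WT and 82056760 in 7012 for KO. The libraries shared 45 barcodes. Cells were clustered without the 10 genes, and the clusters were named from other markers, so that no level of the 10 genes was fixed by the clustering. Alkbh5 itself had 607 UMIs in the WT library and 5 in the KO library, and 26 against 0 in Leydig-like cells. A cluster led by Bhmt, Agt, Lcn2, Fabp3 and Sult1e1, in which 16 of 18 Leydig markers outside the list were detected, held 96 WT cells and 1182 KO cells. It made up 1.31% of all WT UMIs and 12.6% of all KO UMIs, so the WT sums set the precision. The median Leydig-like cell had 10004 UMIs in WT and 7852.5 in KO.

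That cluster was not uniform, which bears on every comparison of the genotypes. At a finer clustering resolution 77 WT and 1080 KO cells stayed Leydig-like, while 19 WT and 102 KO cells moved away. The cells that moved held few Leydig markers, 0.387% of UMIs in WT and 1.14% in KO against 6.93% and 9.09% in the cells that stayed. Their stromal markers, among them collagen genes, reached 0.661% of UMIs in WT and 0.654% in KO against 0.0400% and 0.0519%. The 10 genes together made up 0.0477% of the UMIs of the moved WT cells and 0.316% of those of the moved KO cells. For the ratios of the 10 genes, values for the cells that stayed, called core cells from here on, are therefore given beside those of the whole cluster. Shares of Leydig-like cells with a UMI and spreads over these cells are for the whole cluster unless core cells are named.

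On the mouse build GRCm38 (GENCODE vM21), Hsd3b1 (chr3:98852194-98859794) and Hsd3b6 (chr3:98805504-98814443) lie close together on the minus strand, Star (chr8:25806555-25815982) and Insl3 (chr8:71689214-71690575) lie on the plus strand of another chromosome, and the others are scattered: Cyp11a1 at chr9:58006411-58027023, Cyp17a1 at chr19:46667165-46673172, Hsd17b3 at chr13:64058266-64089230, Srd5a1 at chr13:69573449-69611442, Lhcgr at chr17:88716481-88791990 and Nr5a1 at chr2:38692656-38714542. All 10 are annotated as protein coding, and the counts are per gene. The promoters of both Hsd3b genes are shown because these genes divided the Leydig-like cells, and that of Lhcgr because it holds a motif searched for. Of the 10 genes, 7 had an entry in the RefSeq promoter table (GRCm38.p6), and Star, Cyp17a1 and Nr5a1 had none. Each line gives the 250 bases before the start site, 5′ to 3′ on the strand of the gene (chr3:98859795-98860044, chr3:98814444-98814693 and chr17:88792015-88792264, all on the minus strand), and the capitals mark AGGTCA, the core bases of many nuclear receptor sites.
Hsd3b1: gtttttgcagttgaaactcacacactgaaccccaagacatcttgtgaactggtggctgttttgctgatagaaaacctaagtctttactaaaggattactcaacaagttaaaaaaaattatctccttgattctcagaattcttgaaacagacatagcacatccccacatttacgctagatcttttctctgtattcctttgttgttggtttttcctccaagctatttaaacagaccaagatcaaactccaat
Hsd3b6: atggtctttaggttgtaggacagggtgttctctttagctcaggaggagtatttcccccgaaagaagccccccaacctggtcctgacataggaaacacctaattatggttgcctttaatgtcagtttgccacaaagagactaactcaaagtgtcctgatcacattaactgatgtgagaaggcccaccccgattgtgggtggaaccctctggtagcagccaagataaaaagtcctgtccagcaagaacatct
Lhcgr: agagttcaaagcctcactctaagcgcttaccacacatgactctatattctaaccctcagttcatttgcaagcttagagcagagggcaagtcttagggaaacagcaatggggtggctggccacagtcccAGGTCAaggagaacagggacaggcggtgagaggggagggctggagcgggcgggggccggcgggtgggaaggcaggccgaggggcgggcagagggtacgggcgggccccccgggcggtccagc
The Nr5a1 motif AAGGTCA, searched on both strands, was in none of the 8 windows of the 7 genes and in 4.08% of 32851 windows of that length, and AAGGNCA was likewise in none against 17.5%. AGGTCA, which lies inside AAGGTCA and was added after the data had been seen, was found for Lhcgr and for 1 of the 2 Cyp11a1 windows, and in 14.0% of all windows. The windows of Hsd3b1 and Hsd3b6 matched at 70 of 250 positions when set side by side from the start site without gaps. Their transcripts were 84.9% identical over 1573 aligned bases of a local alignment that allowed gaps. These measures are unlike, so they cannot show whether the windows differ more than the transcripts. These letters describe the windows and say nothing about binding.

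In Leydig-like cells of both libraries Cyp17a1 and Insl3 were among the highest of the 10 genes, and Nr5a1 and Srd5a1 were the lowest. Cyp17a1 was at 9843 UMIs per 1000000 UMIs of the class (CPM) in WT and 5531 in KO. Insl3 was at 4124 in WT and 5132 in KO. Nr5a1, in contrast, was at 67.3 and 88.5, and Srd5a1 at 21.8 and 6.19. Per kilobase of exonic length, the order from the top in WT was Insl3 (6620 CPM per kb), Cyp17a1 (3555), Hsd3b1 (1601), Hsd3b6 (1439), Cyp11a1 (830), Hsd17b3 (375), Star (301), Lhcgr (44.0), Nr5a1 (15.9) and Srd5a1 (7.49). In KO the order was Insl3 (8238 CPM per kb), Hsd3b6 (2579), Hsd3b1 (2128), Cyp17a1 (1998), Hsd17b3 (546), Cyp11a1 (326), Star (246), Lhcgr (42.0), Nr5a1 (20.9) and Srd5a1 (2.13). The counting intervals of neighbours in the order did not overlap in either library. The RNA was captured by its poly A tail, so a count need not grow with length, and both scales are given for that reason.

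**Figure D1:**
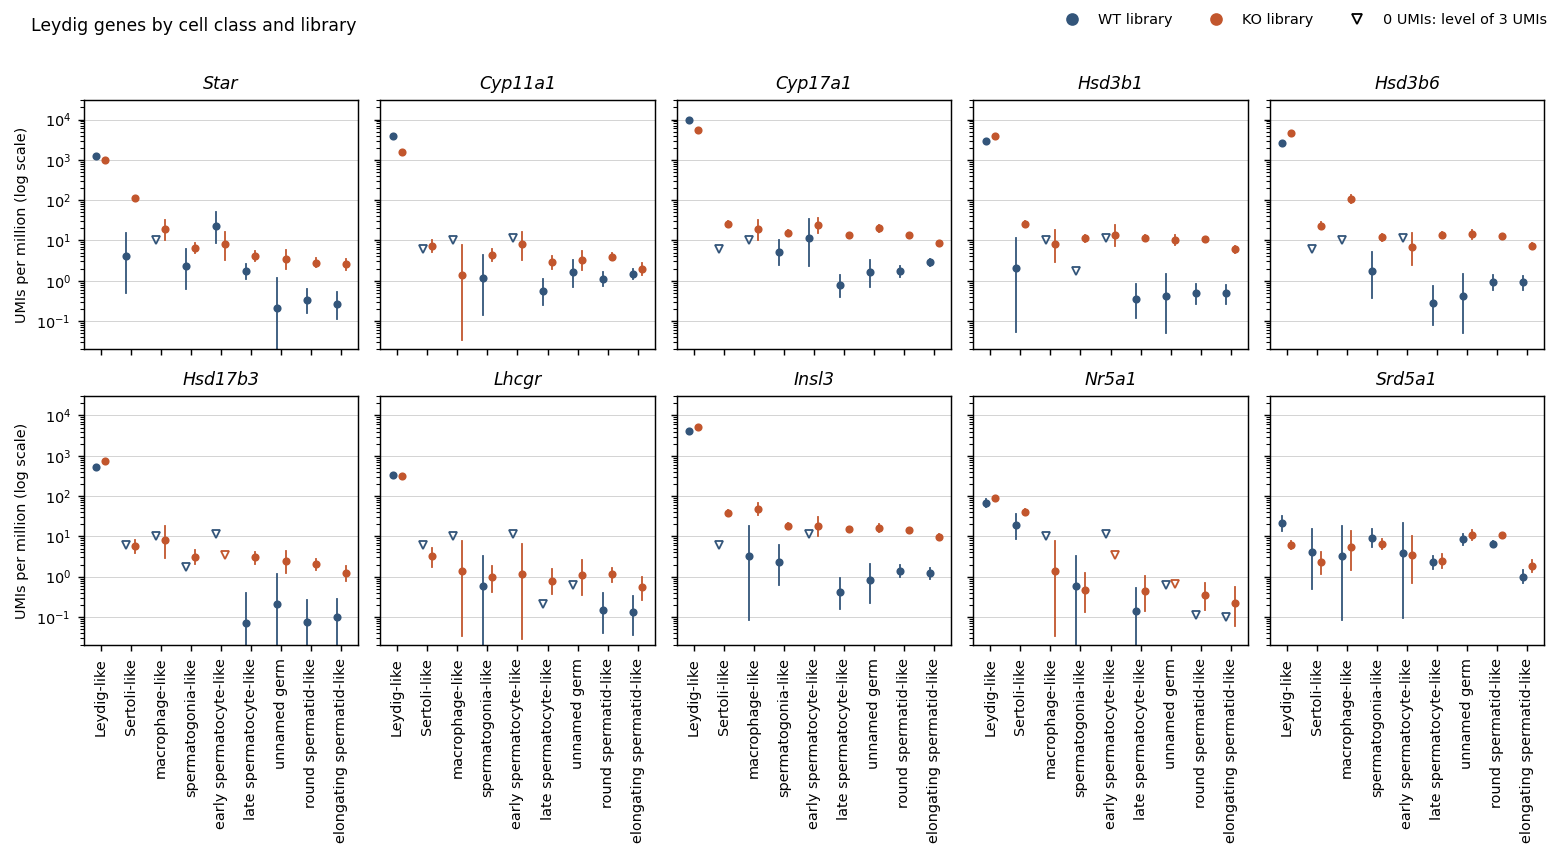
Level of each of the 10 genes by cell class, in CPM on a log axis, with WT in blue, KO in orange and 95% counting intervals as bars; open triangles mark 0 UMIs and stand at the level of 3 UMIs. The class of endothelial-like cells, with 1 WT cell, is left out. In all germ cells 9 genes lie at or below 0.359% of their Leydig-like level, while Srd5a1 in round spermatid-like cells is at 6.62 in WT and 10.9 in KO.

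Star, Cyp11a1 and Cyp17a1 were lower in KO Leydig-like cells, while Hsd3b1, Hsd3b6 and Hsd17b3 were higher, except that Hsd3b1 was lower in the cells without any stromal marker UMI. Star, which brings cholesterol into the mitochondrion, had 1306 UMIs in WT and 10471 in KO, or 1238 and 1012 CPM, a log2 ratio of -0.29 (-0.37 to -0.21), and -0.50 in core cells. Cyp11a1, the side-chain cleavage enzyme, had 4206 and 16207 UMIs, or 3986 and 1567 CPM, so that KO was at 0.393 of the WT level. Its log2 ratio was -1.35 (-1.40 to -1.30) and -1.55 in core cells. Cyp17a1, which makes the C19 androgens, had 10386 and 57224 UMIs, and its log2 ratio was -0.83 (-0.86 to -0.80), or -1.03 in core cells. All 3 genes lay below their WT level in each of the alternatives tried. The log2 ratio of Star was -1.09 in the cells without any stromal marker UMI. The spread over single cells shows the shift of the whole range for Cyp11a1, whose quartiles were 867, 3870 and 6390 CPM over the 96 WT cells and 374, 1261 and 2276 over the 1182 KO cells. For Cyp17a1 the quartiles were 2704, 10743 and 14649 CPM in WT and 1665, 4521 and 7917 in KO. For Star they overlapped far more, with medians of 848 and 763 CPM. The quartiles include the 19 WT and 102 KO cells that moved away at the finer resolution.

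Hsd3b1 had 3133 UMIs in WT and 40837 in KO, or 2969 and 3947 CPM, a log2 ratio of 0.41 (0.36 to 0.46), and 0.21 in core cells. Hsd3b6, the form of adult Leydig cells, had 2737 and 48081 UMIs, or 2594 and 4647 CPM, with a log2 ratio of 0.84 (0.79 to 0.90) and 0.63 in core cells. It had a UMI in 59.4% of WT cells (48.9 to 69.3) and in 83.7% of KO cells (81.4 to 85.7), and in 57.1% and 82.5% when cells were thinned to 5406 UMIs, which left out 5 WT and 123 KO cells. These Leydig-like shares include the 19 WT and 102 KO cells that moved away at the finer resolution, whose part in them was not tested. In germ cells, which should lack Hsd3b6, the share was 0.823% in WT and 6.54% in KO at median depths of 10979.5 and 9595.5 UMIs. Hsd17b3, which makes testosterone from androstenedione, had 550 and 7852 UMIs, or 521 and 759 CPM, a log2 ratio of 0.54 (0.42 to 0.67) and 0.34 in core cells. The ratio of Hsd3b1 was below 0 in the 29 WT and 235 KO cells without any stromal marker UMI, at -0.46, while those of Hsd3b6 (1.14) and Hsd17b3 (0.49) were not.

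The LH receptor, the peptide hormone and the transcription factor had log2 ratios between -0.07 and 0.40 in the whole cluster. Lhcgr, at 355 and 3320 UMIs or 336 and 321 CPM, gave a log2 ratio of -0.07 (-0.23 to 0.09). Its log2 ratio was -0.28 in core cells and -0.545 in cells without any stromal marker UMI. For Insl3, with 4352 and 53099 UMIs, the log2 ratio was 0.32 (0.27 to 0.36), and it came to 0.12 in core cells and to -0.02 without stromal marker cells. Its exons share 404 bases with Jak3 on the same strand, and 58.2% of its 100-base words also occur in Jak3, so reads there may be lost or split; Jak3 itself was at 50.2 CPM in WT and 110 in KO. Nr5a1 had 71 and 916 UMIs, and its log2 ratio of 0.40 (0.05 to 0.77) rested on few WT molecules; in core cells it was 0.27, with an interval that spans 0 (-0.09 to 0.65). Srd5a1 had 23 UMIs in WT and 64 in KO, for a log2 ratio of -1.82 (-2.52 to -1.06) and -2.01 in core cells, with a UMI in 19.8% of WT and 4.82% of KO cells; a single WT cell gave 17.4% of the WT sum.

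**Figure D2:**
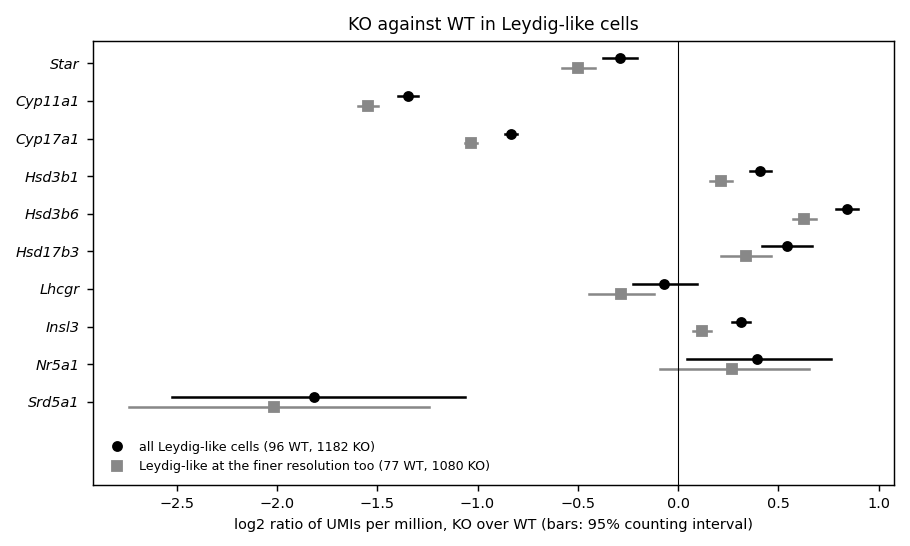
KO over WT as a log2 ratio of CPM for each gene, with 95% counting intervals; black circles stand for all Leydig-like cells and grey squares for the core cells that stayed at the finer resolution. Star, Cyp11a1, Cyp17a1 and Srd5a1 lie below 0 and Hsd3b1, Hsd3b6, Hsd17b3 and Insl3 above it in both sets.

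Counted over the list, 5 genes were higher in KO and 5 lower, and the median log2 ratio was 0.12, or -0.08 in core cells. Among 3576 genes seen in 25% or more of the Leydig-like cells of at least one library, 43.7% were higher in KO by any amount, with a median of -0.05. A size criterion used the study's cell share of 25% and a size cut that the study does not state. It asked in addition for the natural log of the mean per 10000 plus 1 to differ by 0.25 or more. With the added 1, a gene at a low level needed a larger ratio to pass. By this criterion Hsd3b6 and Hsd17b3 were higher in KO, beside 2.77% of those genes, and Cyp11a1 and Cyp17a1 were lower, beside 5.26%. Srd5a1 was in too few cells to be considered. In core cells Hsd3b6 alone was higher, beside 3.06%, and Star joined the 2 lower genes, beside 3.64%. Together the 10 genes held 2.57% of the UMIs of WT Leydig-like cells (2.54 to 2.60) and 2.30% in KO (2.29 to 2.31), and 3.19% and 2.48% in core cells. RNA of other cells was in these sums as well: the markers of elongating spermatids made up 1.53% of UMIs in WT Leydig-like cells and 1.09% in KO, and those of Sertoli cells 0.283% and 0.358%, with Amh and Fshr at 0 in both. Stromal markers made up 0.163% and 0.103%. Mitochondrially encoded genes made up 7.05% and 8.01%. Their part in the ratios was not tested beyond the alternatives.

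**Figure D3:**
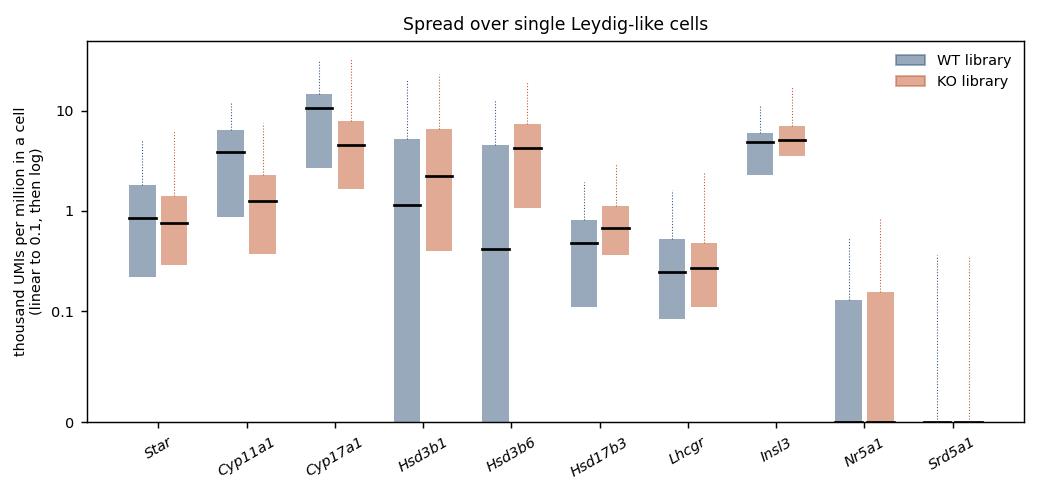
Spread of each gene over single Leydig-like cells, in units of 1000 CPM (linear to 0.1, then log); bars run from the lower to the upper quartile, black lines are medians and dotted lines reach the highest cell. The WT median of Cyp11a1, 3870, lies above the KO upper quartile, 2276, and the WT bars of Hsd3b1 and Hsd3b6 reach down to 0. All 96 WT and 1182 KO cells are drawn, including the 19 and 102 that moved away at the finer resolution.

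Hsd3b1 and Hsd3b6 divided the cells in both libraries. Among core cells with at least 10 UMIs of the pair, 29 of 74 WT cells (39.2%, 28.0 to 51.2) had under 10% of them from Hsd3b6, and 18 (24.3%, 15.1 to 35.7) had over 90%. In KO the same classes held 190 of 1055 cells (18.0%, 15.7 to 20.5) and 271 (25.7%, 23.1 to 28.4). Both ends were thus filled in both libraries, and the WT library was fuller at the Hsd3b1 end. The cuts are lines drawn through a range: within 5 points of the lower one lay 2 WT and 40 KO cells and within 5 points of the upper one 8 and 168. Across cells, Hsd3b1 and Hsd3b6 had a Spearman rho of -0.48 in WT (n = 77 cells) and -0.48 in KO (n = 1080), where the cells of a library share their free RNA. The transcripts are alike but separable, since no 100-base word of Hsd3b1 and 3.11% of those of Hsd3b6 occur in another gene, namely Hsd3b3 or Hsd3b2, which had 0 and 1 UMIs in all Leydig-like cells.

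The other genes were first set against this division within each library, where no comparison of the genotypes enters. Ratios of KO over WT within each range follow after that. Cyp11a1 was at 6114 CPM in WT cells of the Hsd3b1 end and 3185 at the Hsd3b6 end, a log2 difference of -0.94 (-1.08 to -0.81). In KO it was at 2079 and 1261, a log2 difference of -0.72 (-0.79 to -0.65). Sult1e1, the estrogen sulfotransferase, went the same way, from 1779 to 864 CPM in WT and from 2734 to 1257 in KO. Hsd17b3 was lower at the Hsd3b6 end as well, by a log2 difference of -0.63 in WT and -0.20 in KO. So was Cyp17a1, by -0.08 in WT and -0.39 in KO. Nr5a1 differed by -0.52 in WT, with an interval that spans 0 (-1.76 to 0.61), and by -0.57 in KO (-0.87 to -0.27). Srd5a1 was higher at the Hsd3b6 end in WT, by 2.00 (0.21 to 4.13), from 4 UMIs at the Hsd3b1 end and 10 at the Hsd3b6 end. In KO it differed by 0.58, with an interval that spans 0 (-0.57 to 1.83), from 10 and 21 UMIs. Star, Insl3 and Lhcgr had opposite signs in the 2 libraries (-0.49 and 0.19 for Star, -0.13 and 0.09 for Insl3, 0.13 and -0.19 for Lhcgr). In KO, Gata6, a transcription factor, was at 44.6 CPM at the Hsd3b1 end and 9.69 at the Hsd3b6 end, and Cyp21a1 at 156 and 81.5, while the WT sums of both were too small to compare. The lower level of Cyp11a1 in KO was present within each range: its log2 ratio of KO over WT was -1.56 at the Hsd3b1 end, -1.45 in mixed cells and -1.34 at the Hsd3b6 end. For Cyp17a1 the values were -0.81, -1.12 and -1.12. Star was lower in KO at the Hsd3b1 end (-0.56) and in mixed cells (-0.75), but not at the Hsd3b6 end, where its log2 ratio was 0.12 (-0.09 to 0.34). Hsd3b6 itself had a log2 ratio of KO over WT of 0.21 within its own end and 0.31 in mixed cells, against 0.63 in all core cells. At the Hsd3b1 end its log2 ratio was 1.67 (0.90 to 2.57), from 14 UMIs in WT and 244 in KO. The ranges were cut on the share of Hsd3b6, which limits its level within each. Stromal markers made up 0.0281% of UMIs at the Hsd3b1 end and 0.0832% at the Hsd3b6 end in WT, and 0.0509% and 0.0534% in KO; their part in the contrast was not tested. The 3 ranges were cut after the data had been seen.

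**Figure D4:**
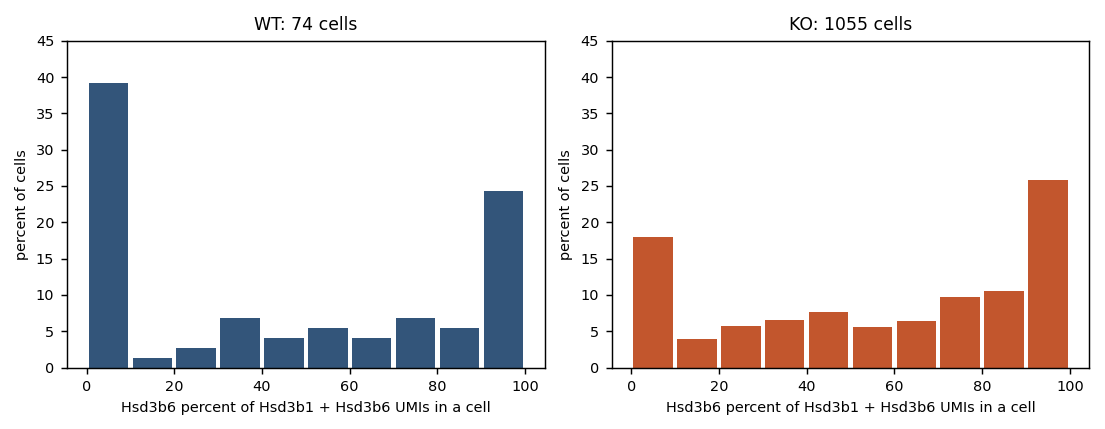
Percent of cells by the share of Hsd3b6 among the UMIs of Hsd3b1 and Hsd3b6 in a cell, in bins of 10 points, for 74 WT and 1055 KO core cells with at least 10 such UMIs. The first and the last bin are the fullest in both libraries, and the first holds 39.2% of WT and 18.0% of KO cells.

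Other pairs were less alike in the 2 libraries. In KO core cells Cyp11a1 and Cyp17a1 had a rho of 0.51 and Cyp17a1 and Hsd17b3 of 0.28. In WT the first pair was at 0.18, and Star and Cyp17a1, at 0.17 in KO, were at 0.47. A core cell had a UMI of 8 of the 10 genes at the median in both libraries, with a range of 6 to 10 in WT and 1 to 10 in KO. These are descriptions over cells of 1 library each, whose depth and free RNA they share.

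Genes that feed the pathway were read from lists named for their roles. Over all genes in enough cells, 2.77% passed the size criterion as higher and 5.26% as lower, and 3.06% and 3.64% in core cells; each list has 7 such genes, so its counts are small. Scarb1, Fdx1, Sult1e1, Hsd11b1 and Prlr are also among the markers that named the cluster. Of 14 genes for cholesterol uptake, transport and storage, 7 were in enough cells, of which 2 passed the size criterion as lower in KO and none as higher. They were Scarb1, the receptor that takes up cholesterol from high-density lipoprotein, at 185 CPM in WT and 78.4 in KO, and Soat1, which esterifies cholesterol, at 311 and 176. Abca1, which exports cholesterol, was at 109 and 181 and passed as higher in core cells only. None of the 8 electron donors passed in the whole cluster, 7 being in enough cells; Fdx1, which hands electrons to Cyp11a1, was at 549 and 451 CPM and passed as lower in core cells. Of 21 other steroid enzymes in the tables, 7 were in enough cells, and 3 passed as higher and none as lower. Cyp21a1, the 21-hydroxylase of the adrenal cortex, was at 11.4 CPM in WT from 12 UMIs and 91.0 in KO, with a counting interval of the log2 ratio from 2.19 to 3.96. Sult1e1 was at 996 and 1925 and Hsd17b11 at 71.1 and 146. Of 19 genes of LH signalling and transcription, 7 were in enough cells, and Crem and Cebpb passed as lower. Crem was at 135 and 49.7 CPM but at 358 and 329 in germ cells, and it did not pass in core cells; Cebpb was at 41.7 and 11.6.

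The 10 genes whose levels over the 20 sums of class and library were most like the mean of the members were Agt, Fxyd1, Fabp3, Akr1cl, Ces1d, Bhmt, Sult1e1, Klk1b24, Hao2 and Klk1b21, with Pearson r from 0.957 to 0.988. Of these, Fabp3, Akr1cl, Ces1d, Sult1e1, Klk1b24, Hao2 and Klk1b21 are among the 18 markers that named the Leydig-like cluster, and all 10 were open to the clustering, so their likeness is in part set by it. Their log2 ratios of KO over WT in Leydig-like cells ran from -0.25 for Hao2 to 0.95 for Sult1e1. Among the members, 8 had an r of 0.932 or more with that mean, of which they are part, while Nr5a1 had 0.792 and Srd5a1 0.494.

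In Sertoli-like cells, the nurse cells inside the tubule, Star and Nr5a1 stood apart from 7 of the other genes. The class held 50 WT and 471 KO cells. Star had 539 UMIs in KO, or 115 CPM (105 to 125), which was 11.3% of its KO Leydig-like level, in 39.1% of the cells. With cells thinned to one depth the share was 33.1%, and in KO germ cells it was 3.31% unthinned and 1.55% thinned, at median depths of 9178 and 9595.5 UMIs. The 7 genes Cyp11a1, Cyp17a1, Hsd3b1, Hsd3b6, Hsd17b3, Lhcgr and Insl3 were at 0.462% to 0.995% of theirs in the same cells. Nr5a1 had 193 UMIs in KO, or 41.1 CPM, at 46.4% of its Leydig-like level, and 9 UMIs or 18.8 CPM in WT, at 28.0%. It is known in Sertoli cells as a regulator of Amh. Srd5a1 had 2 UMIs in WT and 11 in KO. The fractions of Star and Nr5a1 lay above the range of those 7 genes, and the part of free RNA in them was not tested.

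In WT Sertoli-like cells Star had 2 UMIs, 4.18 CPM, so that KO over WT was 4.78 on the log2 scale (2.92 to 7.83). Without doublets Star in KO was at 120 CPM over 433 cells, while Insl3 was at 14.0 in place of 37.9 CPM and Cyp17a1 at 11.1 in place of 25.6. In the 64 KO cells with under 3 Leydig markers, Star had 18 UMIs, 35.3 CPM. Single KO cells gave 3.15% of the Star sum at most, against 36.7% for Cyp17a1 and 40.4% for Hsd3b6. The 17 Sertoli markers made up 1.29% of UMIs in WT and 3.06% in KO, with Amh at 0 in WT. The markers of elongating spermatids made up 15.5% of the UMIs of WT Sertoli-like cells and 3.27% in KO, and mitochondrially encoded genes 7.70% and 12.3%. These shares moved with the difference, and their part in it was not tested. With totals without germ cell genes, Star was at 4.35 and 117 CPM.

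Macrophage-like cells, 23 in WT and 73 in KO, held 2 and 160 UMIs of the 10 genes. Of 78 Hsd3b6 UMIs in KO, 83.3% came from 1 cell, and so did 62.9% of the 35 Insl3 UMIs. The 24 KO endothelial-like cells held 22 UMIs of the 10 genes.

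In germ cells 9 of the 10 genes were found at low levels that were higher in the KO library. Their UMIs were 516 in 5586 WT germ cells and 3837 in 5262 KO germ cells, and 5.66% and 25.3% of the cells had at least 1. Against its Leydig-like level in the same library each of the 9 genes was at 0.0150% to 0.0568% in WT and at 0.210% to 0.359% in KO. The median over all 10 was 0.0303% in WT and 0.274% in KO. The 15 other Leydig markers above 100 CPM had a median of 0.0384% and 0.282% there, with a range of 0.0141% to 15.2% in WT and 0.216% to 20.5% in KO. Leydig-like cells gave 1.31% of WT and 12.6% of KO UMIs. Insl3, for example, had 89 UMIs, 1.13 CPM, in WT germ cells and 914 UMIs, 13.8 CPM, in KO. The KO sum was uneven: 33 cells with 10 or more member UMIs held 42.8% of it, and the 229 germ cells called doublets held 34.2%. Without doublets the KO median was 0.172%, and in germ cells with under 3 Leydig markers it was 0.0967% in KO and 0.0191% in WT. KO germ cells thus lay above WT germ cells for these genes even where the same genes were lower in KO Leydig-like cells. Cyp11a1 had a log2 ratio of 1.46 (1.10 to 1.82) and Cyp17a1 of 2.63 (2.39 to 2.88) in germ cells.

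**Figure D5:**
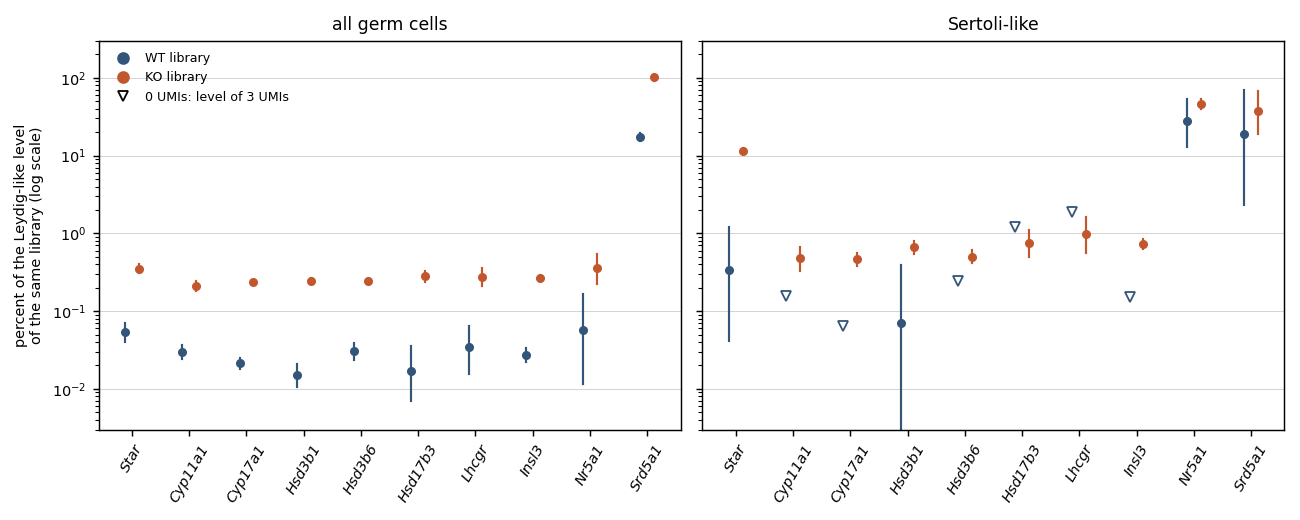
Level of each gene in all germ cells (left) and Sertoli-like cells (right) as a percent of its Leydig-like level in the same library, on a log axis with 95% counting intervals; open triangles mark 0 UMIs and stand at the level of 3 UMIs. In germ cells 9 genes lie between 0.210% and 0.359% in KO and Srd5a1 at 101%, while Star and Nr5a1 stand apart in Sertoli-like cells.

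Among germ cell classes, Star had an uneven profile in WT. It had 24 UMIs in late spermatocyte-like cells, or 1.71 CPM, against 11 of Cyp17a1. In 1 cluster of that class, with 250 cells, Star had 15 UMIs, Insl3 4 and Cyp17a1 0. In early spermatocyte-like cells Star had 6 UMIs in 34 cells, 22.9 CPM (8.40 to 49.8). In WT elongating spermatid-like cells Star had 8 UMIs and Cyp17a1 88. The KO library did not repeat this profile in the early class: Star had 7 UMIs there, Insl3 16 and Cyp17a1 21. In the cells of the cluster named above with under 3 Leydig markers, Star, Insl3 and Cyp17a1 had 15, 4 and 0 UMIs in WT. In KO they had 10, 9 and 10. These are small sums of 1 library each.

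Most Srd5a1 UMIs of both libraries lay in germ cells. Germ cells held 299 of its 325 UMIs in WT and 415 of its 496 in KO, whereas for 8 of the other 9 genes over 92% lay in Leydig-like cells. It was at 6.62 CPM (5.68 to 7.67) in WT and 10.9 (9.55 to 12.3) in KO in round spermatid-like cells, the early haploid stage. The germ cluster without a name had 8.67 and 10.8 CPM, and spermatogonia-like cells 9.38 from 16 UMIs and 6.57 from 55. Late spermatocyte-like cells were lower, at 2.28 (1.56 to 3.22) and 2.47 (1.64 to 3.57), and elongating spermatid-like cells were at 1.00 (0.682 to 1.43) and 1.85 (1.28 to 2.59). Round spermatid-like cells were thus above both of these classes in both libraries. In KO, round spermatid-like cells lay above Leydig-like cells (6.19 CPM, 4.76 to 7.90), and in WT below them (21.8 CPM, 13.8 to 32.7). In round spermatid-like cells without a UMI of any Leydig marker, Srd5a1 was at 5.04 CPM over 291 WT cells and 12.3 over 156 KO cells, with Insl3 at 0.315 and 2.58. The exons of Srd5a1 share 476 bases with Gm17108 on the same strand, and Gm17108 was itself at 11.7 and 19.6 CPM in round spermatid-like cells and 0.948 and 0.967 in Leydig-like cells, so which of these genes gave the germ cell reads in the shared part cannot be told apart here.

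Summed over a whole library, every gene was higher in KO, from 1.49-fold for Srd5a1 to 17.1-fold for Hsd3b6, with Cyp11a1 at 3.75-fold. More cells of a type and more RNA per cell cannot be told apart in such sums alone. The number of Leydig-like cells and the levels within them differed as given above.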

How the data were processed

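Single-cell RNA of testes was read from 1 WT and 1 KO library made with the Singleron GEXSCOPE kit, which primes on poly A tails. The deposited counts are UMIs per gene and cell barcode, whole numbers that the authors made from their reads without normalization. The submitters' processing notes list FastQC 0.11.7, fastp 1, STAR 2.5.3a, featureCounts 1.6.2 and Seurat 3.2.2n. The study's methods name a human genome while the symbols are those of the mouse, so the build behind the counts is unclear, and strand use in counting is not given in the sources used here. No column of per-sample values was left out (0 columns).

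All barcodes with more than 500 genes were kept. Of 2000 variable features, 8 were among the 10 genes and were left out. Seurat 5.3.0 (R 4.3.3) integrated both libraries on the other 1992 with 20 anchor dimensions and clustered on 30 components at resolution 0.3. A cluster was named "X-like" from at least 3 detected markers outside the 10 genes. Doublets were called by Scrublet (scanpy 1.11.5, expected rate 0.06) and kept except in the alternative without them. UMIs were summed per class and library and divided by the total of that class (CPM). Sums have exact Poisson, shares exact Clopper-Pearson and ratios exact conditional 95% intervals (scipy 1.17.1), for counting error only. The size criterion took genes seen in 25% or more of the cells of at least one library. The natural log of their mean per 10000 plus 1 had to differ by 0.25 or more between the libraries. The ratio script was tested on simulated data. The genes named are the 10, Alkbh5, the pathway lists and the 10 genes most like the members by correlation of log2(CPM + 1). Members and lists were chosen with earlier results of these data known.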

Additional observations from a re-analysis of the deposited data

Results flagged for a closer look

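For 4 of the genes the ratio of KO over WT was below 0 in Leydig-like cells, with an interval clear of 0, and above 0 in germ cells. Lhcgr was likewise higher in KO germ cells, but its log2 ratio of -0.07 in Leydig-like cells had an interval that spans 0. On the log2 scale Star was at -0.29 in Leydig-like cells and 2.43 in germ cells, and Cyp11a1 at -1.35 and 1.46. Cyp17a1 was at -0.83 and 2.63. Srd5a1 was at -1.82 and 0.72. With 1 library per genotype these differences between the classes were not tested. For Star, Cyp11a1 and Cyp17a1 the germ cell levels were under 0.36% of the Leydig-like ones, and Leydig-like cells held 1.31% of UMIs in WT and 12.6% in KO; the part of that difference in the germ cell ratios was not tested.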

How the results depend on the processing

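No paired analysis was possible because there was 1 library per genotype. Cyp11a1, Cyp17a1, Star, Srd5a1 and Lhcgr stayed lower and Hsd3b6, Hsd17b3 and Nr5a1 higher in KO in every alternative run. For Lhcgr and Nr5a1 some values were close to 0. Lhcgr was at -0.02 with ratios centred on the median gene, but at -0.37 in cells taken by 6 or more Leydig markers. In cells without any stromal marker UMI Nr5a1 was at 0.02, Lhcgr at -0.545 and Star at -1.09. The median log2 ratio of the 10 genes, 0.12, was -0.18 in 98 WT and 1414 KO cells taken by 6 or more Leydig markers, and -0.50 in cells without any stromal marker UMI, where 3 genes in place of 5 were higher. This last setting, the size criterion at resolution 0.8 and centring at that resolution were chosen after seeing the data. The KO over WT ratio of the share of UMIs held by the genes, 0.895, was 0.778 at resolution 0.8, 0.821 without integration, 0.727 by marker number, 0.940 without doublets, 0.878 with equal weight per cell, 0.852 with thinned cells, 0.911 without mitochondrial and ribosomal protein genes, 0.839 without germ cell genes and 0.690 without stromal marker cells. With a CPM ratio of at least 2 in place of the size criterion 0 genes were higher (2 before) and 1 lower (2 before), and at resolution 0.8 1 was higher. The median germ cell level, relative to Leydig-like cells 0.0303% for WT and 0.274% for KO, was 0.0191% and 0.0967% in cells with under 3 Leydig markers, and 0.172% in KO without doublets. The cause of these shifts was not tested. The 96 WT Leydig-like cells limit the precision.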
